A study of Homo sapiens with 6 samples.

Results

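The cytosolic ribosomal proteins are the proteins of the large (RPL) and small (RPS) ribosomal subunits outside mitochondria. Their genes were taken from the array's annotation by symbol, without the RPS6K kinases and without pseudogenes. The rule gave 58 genes, 36 of the large and 22 of the small subunit, among 11963 genes named by a probe set with 1 symbol. They were read by 96 probe sets, 57 of the large and 39 of the small subunit. A probe set is a group of short oligonucleotides on an Affymetrix array that together give 1 intensity for a transcript. The RNA came from Hs578T, an established human breast cancer line, carrying an inducible gene for HOXA5, a homeobox transcription factor whose target genes the series set out to find. Groups of 2 arrays each held uninduced cells (0 h), cells 6 h after induction and cells 9 h after induction, 1 array of each time from experiment 1 and 1 from experiment 2. All 3 groups carried the inducible gene, no array of cells without it was used here, and the sources used here do not say what induced it or at which dose. No probe set of the annotation names HOXA5 alone, so its induction was not checked here. The labels give 2 batches of RNA and no further replication, so the p-values measure the spread between these arrays, which may be technical.

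Ribosomal proteins coat and shape the ribosomal RNAs that read mRNA and join amino acids, and a growing cell makes them in near equal amounts. In mammals this balance is set largely at translation. Most of their mRNAs begin with a C and a run of pyrimidines, the 5′ terminal oligopyrimidine (TOP) tract, through which mTOR signalling and the RNA binding protein LARP1 control their use by ribosomes. Some members have further roles: RPL11 with RPL5 binds and inhibits MDM2, the ligase that degrades p53, and in the mouse Rpl38 is needed to translate a subset of Hox mRNAs.

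The transcription starts of the members that the results below turn on are shown first, because the tract is what most of these genes share beyond their protein's place. Each line gives 15 bases before and 15 bases from the annotated start, 5′ to 3′ on the gene's strand, from RefSeq on GRCh38.p14, with the unbroken pyrimidine run that begins with C at the start in capitals. The first 8 genes have such a tract at the annotated start and the last 4 do not, though in RPL3 and RPL36AL a pyrimidine run crosses the start.
RPL22, chr1:6199581-6199610, minus strand: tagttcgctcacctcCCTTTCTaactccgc
RPS10, chr6:34426055-34426084, minus strand: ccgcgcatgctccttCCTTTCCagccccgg
RPL24, chr3:101686704-101686733, minus strand: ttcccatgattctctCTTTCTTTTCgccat
RPS21, chr20:62387088-62387117, plus strand: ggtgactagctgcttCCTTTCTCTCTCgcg
RPL39, chrX:119791616-119791645, minus strand: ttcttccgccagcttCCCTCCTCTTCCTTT
RPS9, chr19:54200843-54200872, plus strand: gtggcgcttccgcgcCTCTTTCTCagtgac
RPS6, chr9:19380222-19380251, minus strand: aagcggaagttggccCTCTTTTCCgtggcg
RPL41, chr12:56116618-56116647, plus strand: cggaacttcgcctttCTCTCggccttagcg
RPL3, chr22:39319609-39319638, minus strand: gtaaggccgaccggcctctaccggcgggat
RPL36AL, chr14:49620612-49620641, minus strand: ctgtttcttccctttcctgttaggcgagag
RPS27L, chr15:63157463-63157492, minus strand: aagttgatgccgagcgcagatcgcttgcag
RPS4X, chrX:72277234-72277263, minus strand: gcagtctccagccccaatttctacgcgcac

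Start windows were found for 50 of the 58 genes. A C followed by at least 4 pyrimidines stood at an annotated start in 34 of these genes and in none of the listed starts of the other 16. Of 58 windows of these genes 58.6% had the tract, against 4.07% of 35116 windows of all genes. In the 300 bases around each start, the letters CCGGAAG, the core bound by ETS factors, were found on either strand in 37.9% of the windows of ribosomal protein genes and in 10.3% of all windows. The core of YY1 sites, AAGATGGC, was in 6.90% and 2.89%, and TATAA in 17.2% and 20.4%. TAATTA, a core that many homeobox factors bind, was in 0 of the 58 windows and in 4.84% of all windows. These matches are letters in a window and not sites shown to be bound.

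Of the 96 probe sets, 92 (57 genes) lay above the intensity floor in at least 2 of the 6 arrays and were tested. Ribosomal protein mRNAs were among the brightest on every array: the median of the 92 stood at the 98.95th to 99.13th percentile of all probe sets. The deposited values are not scaled between arrays. Array medians were 95.7 and 49.0 intensity units at 0 h, 18.7 and 39.0 at 6 h, then 48.7 and 42.3 at 9 h, in experiments 1 and 2. The median of the 92 over the array median, on the log2 scale, was 5.90 and 6.26 at 0 h, 6.16 and 5.69 at 6 h, then 6.36 and 5.57 at 9 h. The 3 groups overlapped in this measure. Levels below are log2 intensities after quantile normalisation, changes are differences of their group means with the standard error of the limma fit, and values within a group are in the order of experiments 1 and 2. Mesenchymal markers, which this line is known to express, lay above the floor in all arrays for 11 of 12 genes, with summed normalised intensities of 15132.2 to 17785.9. Of 12 luminal epithelial markers 8 were tested, with sums of 1191.8 to 3914.9, and endothelial and leukocyte markers summed to 65.0 to 72.6 and 629.3 to 1121.2. Above the floor in all arrays were also 7 of the 8 tested luminal, 5 of 6 leukocyte and 1 of 3 endothelial markers. This count thus did not separate the mesenchymal list from the luminal or leukocyte one. The highest luminal level at 0 h was that of KRT18, 11.78 and 9.73, and the highest leukocyte level that of LCP1, 9.04 and 9.52.

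Among the members with a mean log2 level of at least 10, 66 probe sets for 50 genes, the spread between members differed by array in the deposited values. Their interquartile range was 0.71 and 0.77 log2 units at 0 h, 1.29 and 1.12 at 6 h, then 0.90 and 1.07 at 9 h. Both 0 h arrays had the narrowest ranges, and the groups did not overlap between 0 h and the induced times. After quantile normalisation the ranges were 0.85 and 0.81, 0.95 and 0.99, and 0.89 and 0.98. The 3 arrays with the brightest members, both 0 h arrays and the 9 h array of experiment 1, also had the 3 narrowest deposited ranges, and the part of array brightness in the single changes below was not tested. For this reason single members were also read against the median of these 66 probe sets in the same array.

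**Figure D1:**
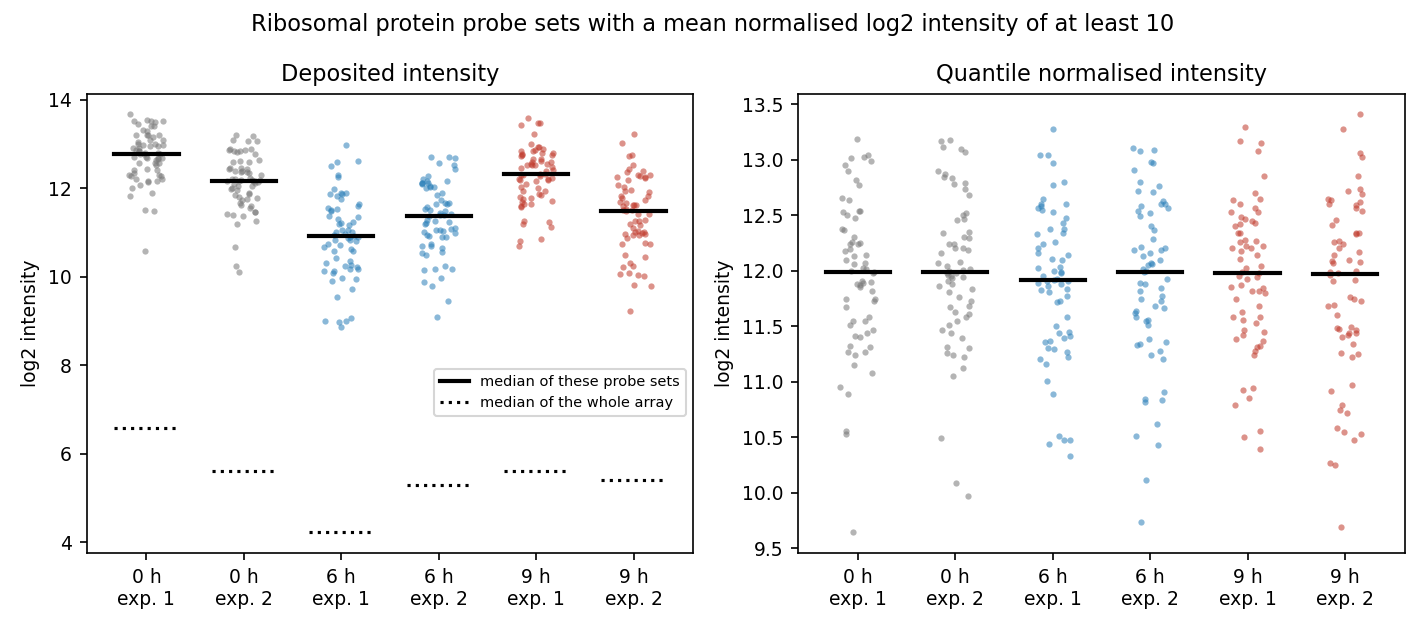
Log2 intensity of the ribosomal protein probe sets with a mean log2 level of at least 10, one point per probe set, in each of the 6 arrays (0 h, 6 h, 9 h; experiments 1 and 2), as deposited (left) and after quantile normalisation (right). Solid bars are the medians of the probe sets shown and dotted bars the array medians; the left panel shows the points spread over a wider range in the 6 h arrays, and the right panel shows medians between 11.92 and 11.99. The single Y-linked member is not drawn.

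After quantile normalisation the median of the family stood close to its uninduced level at both times. Before it, the family median over the array median was 5.90 at 0 h, 6.16 at 6 h and 6.36 at 9 h in experiment 1. In experiment 2 it was 6.26, 5.69 and 5.57, so the experiments ran in opposite directions. Quantile normalisation gives every array the same distribution, so it can hide a shift shared by the brightest probe sets. At 6 h against 0 h the median log2 change over the 92 probe sets was -0.05, against -0.00 over all 18360 tested, and within experiments 1 and 2 it was -0.03 and 0.00. At 9 h it was 0.01, against -0.02 over all tested, and 0.05 and -0.09 within the experiments. In bulk RNA, fewer cells that make a transcript and less of it per cell cannot be told apart. The sign of the 6 h median depended on the scaling: it was 0.02 with arrays scaled to a common median and 0.22 with a common trimmed mean. Large-subunit probe sets (56 tested) had medians of -0.08 at 6 h and -0.00 at 9 h, and small-subunit probe sets (36 tested) 0.03 and 0.03. A total of 77 of the 92 (83.7%) lay within 1.5-fold of their 0 h level at 6 h and 81 (88.0%) at 9 h, against 75.9% and 73.1% of all tested probe sets. At a level of at least 10 the shares were 90.9% of the members against 94.4% of all probe sets at 6 h, and 92.4% against 84.4% at 9 h, so the order at 6 h turned with the level. Among probe sets at a level of at least 10, the median size of the change, regardless of sign, was 0.13 at 6 h and 0.15 at 9 h for the 66 members and 0.17 and 0.23 for all 700. The 57 other probe sets that list a ribosomal protein gene together with further symbols, 51 of them with a small nucleolar RNA of an intron, were not given a gene name. For the 56 of them that were tested, the medians were -0.03 at 6 h and -0.01 at 9 h.

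**Figure D2:**
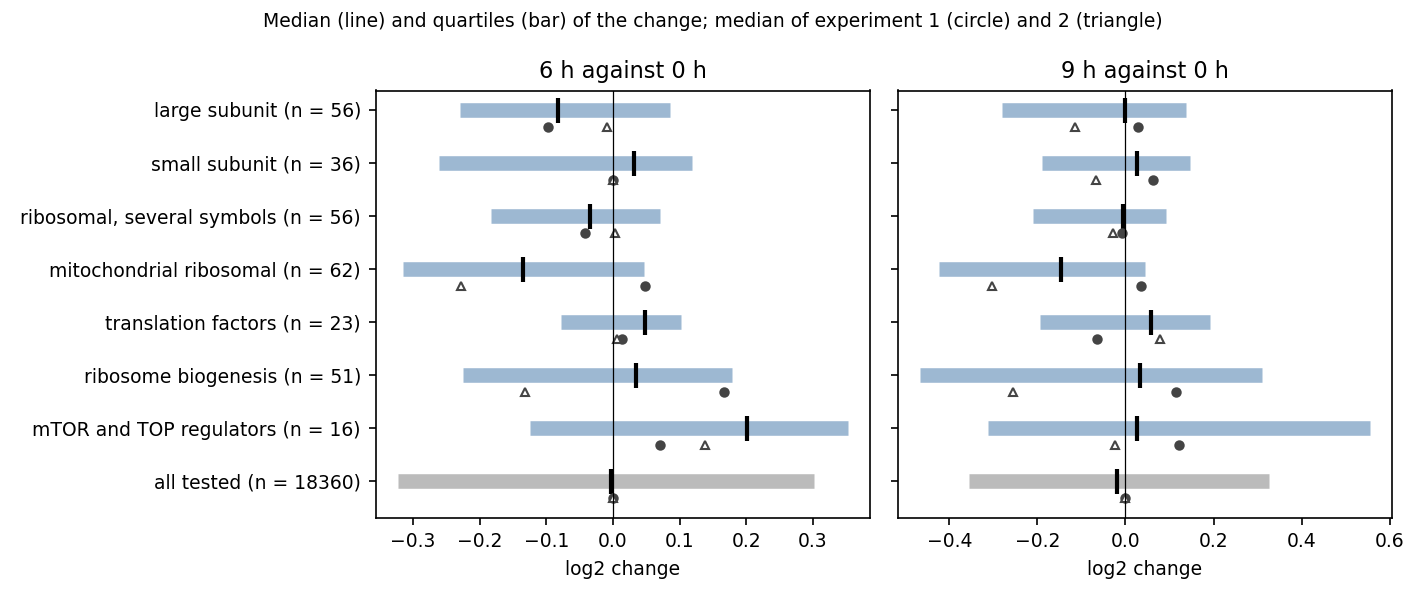
Log2 change at 6 h (left) and 9 h (right) against 0 h for the ribosomal protein probe sets and related groups. Black lines are medians, bars run between the quartiles, and circles and triangles are the medians of experiments 1 and 2. The number of probe sets (ribosomal groups and all tested) or genes (translation factors, biogenesis, regulators) is given as n. The group of translation factors also holds other proteins such as NPM1. Medians of the cytosolic groups lie within 0.09 of 0 at both times.

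No ribosomal protein probe set passed the threshold of 0.05 in limma with Benjamini-Hochberg adjustment at 6 h, at 9 h, between 9 h and 6 h, or for both induced times against 0 h, and neither did any other probe set on the array (0% called in each comparison). At an unadjusted p below 0.05 there were 6 members at 6 h, 5 at 9 h, 2 at 9 h against 6 h and 7 for both induced times, against 4.77%, 7.41%, 5.27% and 6.19% of all tested probe sets. With experiment added to the fit, 0 members passed at 6 h and at 9 h against 6 h (0% of all tested), 0 at 9 h (0.359% of all tested), and 1 for both induced times against 0 h (0.163% of all tested). That member was a probe set of RPL22. In that limma fit, 15.2% of members had an unadjusted p below 0.05 at 6 h (2 higher, 12 lower), against 9.7% of all tested. At 9 h it was 17.4% (7 and 9) against 13.9%, and for both induced times 20.7% (6 and 13) against 12.3%. At 9 h against 6 h it was 3.26% against 9.24%. At a level of at least 10 the shares were 15.2% against 10.3% at 6 h and 16.7% against 25.1% at 9 h. For both induced times they were 18.2% against 19.6%.

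Over all 92 probe sets, changes of the same direction in both experiments against 0 h were about as common as elsewhere. At 6 h, 19 of 92 were higher in both (20.7%, against 25.3% of all tested) and 28 were lower in both (30.4%, against 25.8%). At 9 h, 26 were higher (28.3%, against 26.9%) and 28 lower (30.4%, against 28.9%). At 9 h against 6 h, 32 were higher in both experiments (34.8%, against 27.1%) and 17 lower (18.5%, against 25.9%). Of the 25 members that end in neither _x_at nor _s_at, 0 were higher and 9 lower (36.0%) in both experiments at 6 h. For these, 3 were higher and 8 lower at 9 h, and 10 and 4 at 9 h against 6 h. The share of all tested probe sets with such endings was not taken. The 0 h and 6 h ranges did not overlap for 14 members that were higher and 19 that were lower at 6 h, with 16.1% and 16.2% of all probe sets as background. For 9 h the counts were 17 higher and 20 lower, with a background of 18.3% and 19.1%. All 4 induced arrays lay above both 0 h arrays for 9 members and below them for 10, with a background of 6.44% and 7.8%. These counts depended on the scaling: in all 4 induced arrays 2 were higher and 1 lower with a common median and 18 and 2 with a common trimmed mean. At 6 h 5 and 31 were higher under the same scalings. The shares of all tested probe sets under these 2 scalings were not taken. Whether these counts are particular to the members thus cannot be told.

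Members were then counted that stood apart on both scales, normalised and relative to the family median, among 91 probe sets without the Y-linked member. At 6 h, 11 were higher and 12 lower on both scales (7.7% and 11.4% of all tested), and at 9 h 16 were higher and 12 lower (13.5% and 13.4%). In all 4 induced arrays, 9 probe sets of 8 genes were higher on both scales (2.46% of all tested) and 6 probe sets of 4 genes were lower (5.01%). The higher ones were RPL37, RPLP1, RPS14, RPL39, RPS4X, RPS9, RPL37A and RPS6, RPS6 with 2 probe sets. The lower ones were RPL22 with 3 probe sets, RPS10, RPL29 and RPS21. The family median is that of the bright members themselves, so the shares of all tested on both scales are not a like background. On the normalised scale alone, at a level of at least 10, 8 of 66 members were higher and 9 lower in all 4 induced arrays. Of all 700 tested probe sets at that level, 62 were higher and 63 lower.

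**Figure D3:**
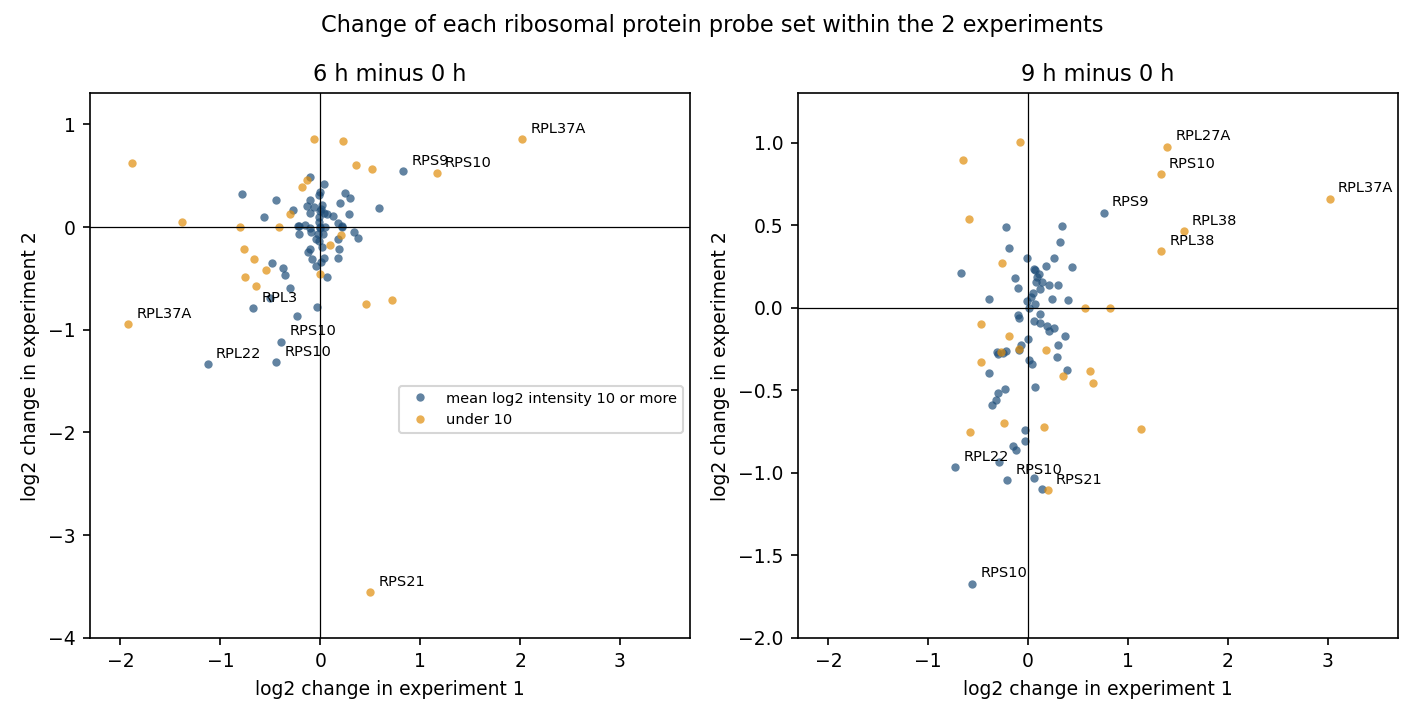
Log2 change of each tested ribosomal protein probe set in experiment 1 (horizontal) and experiment 2 (vertical), at 6 h (left) and 9 h (right) against 0 h; blue points have a mean log2 level of at least 10 and orange points a lower one. Most points lie close to 0 on both axes, those far from it are mostly orange, and the RPL22 and RPS9 probe sets labelled are blue points with the same direction in both experiments at both times.

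The largest change among members at a level of at least 10, at 6 h and for both induced times together, was in RPL22, a large-subunit protein that also binds small viral and cellular RNAs and, in the mouse, is needed for the development of alpha-beta T cells while ribosomes work without it. The probe set 220960_x_at stood at 12.01 and 11.76 at 0 h, 10.89 and 10.43 at 6 h, then 11.28 and 10.79 at 9 h. All 4 induced arrays lay below both 0 h arrays. The log2 change was -1.23 ± 0.27 at 6 h and -0.85 ± 0.27 at 9 h, and for both induced times -1.04, with -0.93 in experiment 1 and -1.15 in experiment 2. Its adjusted p for both induced times was 0.682 in limma without the experiment and 0.0496 with it. With the lot line as the block in place of the title's experiment number, the adjusted p was 0.536 and no member passed. Relative to the family median of the array it was 0.01 and -0.21 at 0 h, -1.38 and -1.60 at 6 h, then -0.72 and -1.18 at 9 h. Over 15 settings the change for both induced times stayed between -1.17 and -0.91.

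The other RPL22 probe sets gave smaller changes. The bright 221775_x_at stood at 12.06 and 12.21 at 0 h, 11.83 and 11.34 at 6 h, then 11.94 and 11.34 at 9 h, a change of -0.55 ± 0.28 at 6 h and -0.49 ± 0.28 at 9 h. The bright 208768_x_at stood at 12.17 and 12.04 at 0 h, 11.81 and 11.64 at 6 h, then 11.85 and 11.48 at 9 h, a change of -0.38 ± 0.22 and -0.44 ± 0.22. In both, every induced array was below every 0 h array. The dimmer 221726_at gave -0.48 ± 0.26 and -0.27 ± 0.26, and 214042_s_at gave -0.04 ± 0.29 at both times. So 4 of the 5 RPL22 probe sets were lower in both experiments at both times, and the 5 spanned 1.19 log2 units in their 6 h change. The 3 bright ones end in _x_at, the array maker's mark for probes that can also bind other transcripts, so signal from similar sequences cannot be told apart from RPL22 there.

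RPS10, a small-subunit protein at the mRNA entry side of the ribosome and a gene of Diamond-Blackfan anaemia, was read by 4 probe sets that did not move together. The probe set 200817_x_at stood at 13.02 and 12.90 at 0 h, 12.58 and 11.58 at 6 h, then 12.46 and 11.22 at 9 h. The probe set 200095_x_at stood at 12.66 and 12.79 at 0 h, 12.26 and 11.67 at 6 h, then 12.45 and 11.74 at 9 h. After normalisation both were lower in every induced array, with changes of -0.88 ± 0.46 and -0.76 ± 0.31 at 6 h and then -1.12 ± 0.46 and -0.63 ± 0.31 at 9 h. In both the change in experiment 2 was the larger one. Relative to the family median of the array, 200817_x_at stood at 0.75 and 0.72 at 0 h and at 0.96 and -0.43 at 6 h. Its groups thus overlapped at 6 h on that scale. There 200095_x_at went from 0.54 at 0 h to 0.45 at 6 h in experiment 1 and from 0.67 to -0.35 in experiment 2. The brightest, 211542_x_at, gave -0.45 ± 0.19 and -0.41 ± 0.19, but its 6 h value turned to 0.02 when arrays were scaled to a common median. Over the 15 settings the 6 h change spanned -1.38 to -0.25 for 200817_x_at and -1.05 to -0.33 for 200095_x_at. The dim 214001_x_at gave 0.85 ± 0.63 and 1.07 ± 0.63 in the other direction.

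RPS21, a small protein of the small subunit, stood at 12.07 and 11.98 at 0 h, 11.72 and 11.51 at 6 h, then 11.84 and 11.49 at 9 h in its bright probe set. Every induced array was lower, by -0.41 ± 0.22 on average at 6 h and -0.36 ± 0.22 at 9 h. RPL29, a large-subunit protein also known to bind heparin, stood at 11.24 and 11.51 at 0 h, 11.16 and 11.20 at 6 h, then 10.94 and 10.58 at 9 h in 200823_x_at. Its change was -0.19 ± 0.23 at 6 h and -0.61 ± 0.23 at 9 h, while its second probe set, 213969_x_at, gave 0.11 ± 0.19 and -0.09 ± 0.19.

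RPL3, a core protein near the site of peptide bond formation, stood at 12.25 and 12.34 at 0 h, 11.58 and 11.56 at 6 h, then 12.22 and 11.60 at 9 h. The 6 h arrays were both below 0 h, at -0.73 ± 0.25, while at 9 h experiment 1 was back at its 0 h level and experiment 2 was not, for a mean of -0.39 ± 0.25. RPL24, which forms a bridge to the small subunit, stood at 11.51 and 11.32 at 0 h, 11.01 and 10.62 at 6 h, then 11.36 and 10.48 at 9 h in 200013_at. That is -0.60 ± 0.32 at 6 h and -0.49 ± 0.32 at 9 h. Its second probe set, 214143_x_at, gave -0.41 ± 0.37 and -0.48 ± 0.37, and leaving out 1 array, that of 9 h in experiment 2, turned the 9 h value to 0.05. Over the 15 settings the 9 h change spanned -0.70 to -0.08 for RPL3 and -0.94 to -0.05 for 200013_at of RPL24. RPL36, a large-subunit protein, gave -0.16 ± 0.27 at 6 h and -0.42 ± 0.27 at 9 h.

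**Figure D4:**
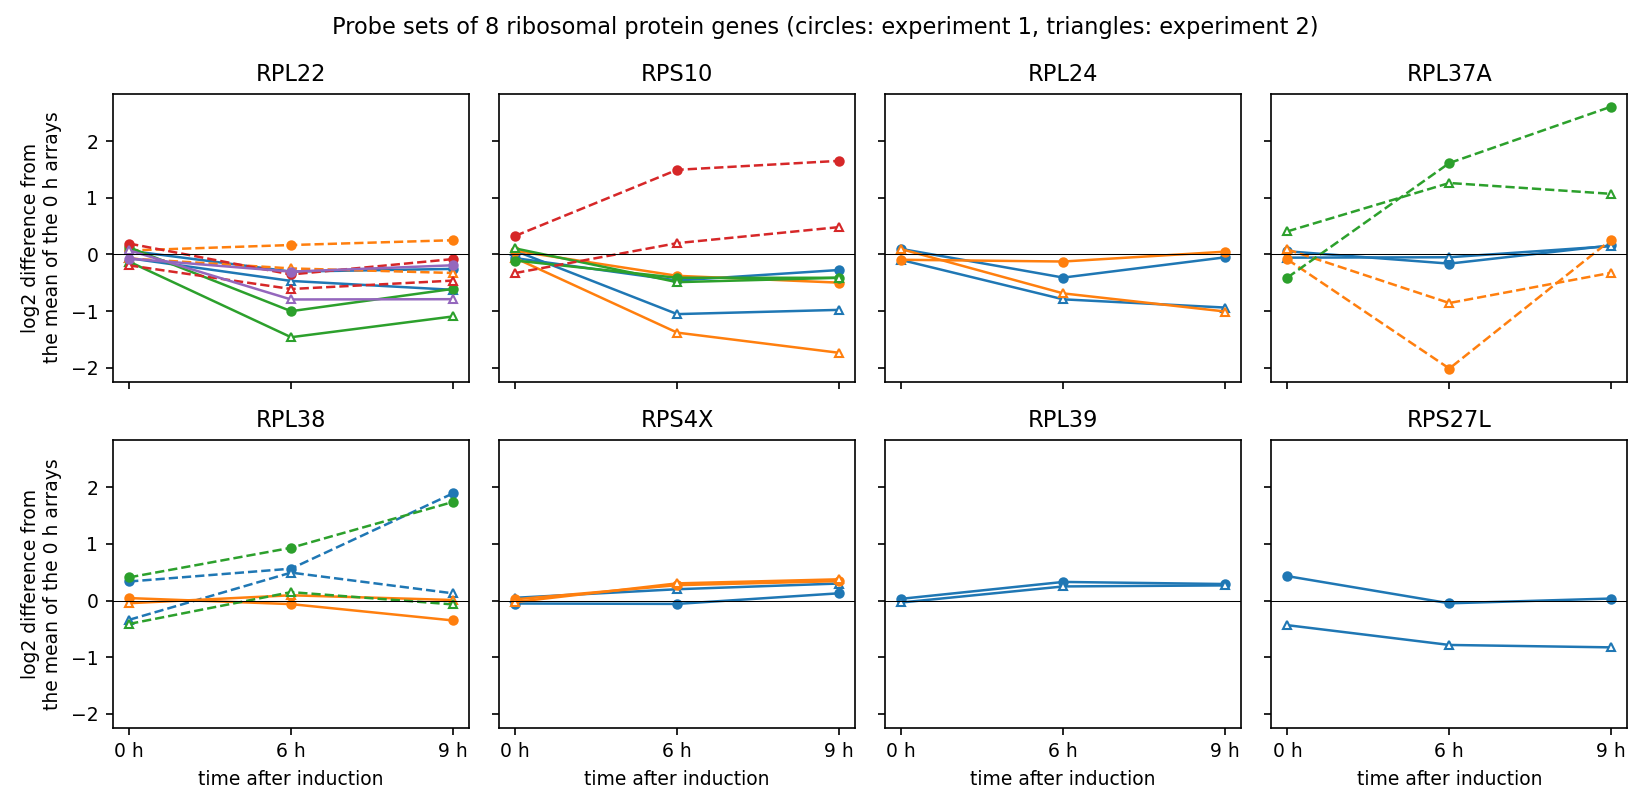
Log2 difference of each probe set of 8 ribosomal protein genes from its own mean over the 0 h arrays, by time after induction; one colour per probe set, circles for experiment 1 and triangles for experiment 2, solid lines for a mean log2 level of at least 10 and dashed lines for lower ones. The solid RPL22 lines run below 0 at both times, the RPS4X and RPL39 lines lie mostly just above it, and the dashed lines of RPL37A, RPL38 and RPS10 run away from the solid lines of the same gene.

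On the higher side the changes were smaller. RPL39, a small protein that lines the exit tunnel for the growing peptide, stood at 12.30 and 12.24 at 0 h, 12.60 and 12.52 at 6 h, then 12.56 and 12.54 at 9 h. The change was 0.29 ± 0.19 at 6 h and 0.28 ± 0.19 at 9 h, nearly the same in both experiments, with no overlap between the induced and the 0 h arrays. RPS4X, the X-linked form of a small-subunit protein that also has a Y-linked copy, stood at 11.85 and 11.81 at 0 h, 12.10 and 12.13 at 6 h, then 12.17 and 12.21 at 9 h in 213347_x_at. Its change was 0.29 ± 0.19 and 0.36 ± 0.19, and the brighter 200933_x_at gave 0.07 ± 0.20 and 0.22 ± 0.20.

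RPS6, the small-subunit protein phosphorylated by S6 kinases after mTOR activation, stood at 11.87 and 11.67 at 0 h, 11.91 and 12.10 at 6 h, then 12.21 and 12.17 at 9 h in 209134_s_at. The change was 0.23 ± 0.20 at 6 h and 0.41 ± 0.20 at 9 h. Its other tested probe sets gave 0.09 ± 0.19 and 0.17 ± 0.19 (201254_x_at) and 0.11 ± 0.23 and 0.10 ± 0.23 (200081_s_at). RPS9, a small-subunit protein known to affect decoding accuracy, stood at 9.64 and 9.97 at 0 h, 10.47 and 10.51 at 6 h, then 10.40 and 10.54 at 9 h in 214317_x_at. All induced arrays were higher, by 0.69 ± 0.22 at 6 h and 0.67 ± 0.22 at 9 h. Its brighter probe set, 217747_s_at, gave 0.19 ± 0.26 and 0.14 ± 0.26 with opposite directions in the experiments.

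Smaller values on the higher side were found in RPL37, RPS27 and RPL23A. RPL37, a zinc-binding protein of the large subunit, gave 0.11 ± 0.19 at 6 h and 0.22 ± 0.19 at 9 h. RPS27, a zinc-binding protein of the small subunit, gave 0.22 ± 0.21 and 0.05 ± 0.21, and RPL23A, which sits at the exit of the peptide tunnel, gave 0.21 ± 0.21 and 0.02 ± 0.21. The sizes depended on the settings: the 6 h change spanned 0.05 to 1.11 for RPL23A, 0.09 to 0.47 for RPS27, 0.09 to 0.36 for RPL37 and 0.25 to 0.78 for RPL39, with the highest values under trimmed mean scaling. After quantile normalisation RPL41, the shortest ribosomal protein, differed by less than its spread between arrays at both times. It stood at 13.05 and 13.10 at 0 h, 13.05 and 13.09 at 6 h, then 13.17 and 13.06 at 9 h. Relative to the family median of the array it was 0.77 and 0.91 at 0 h, 1.70 and 1.32 at 6 h, then 1.15 and 1.26 at 9 h. On that scale every induced array was above both 0 h arrays, so its reading depended on the scale.

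The stalk proteins, which recruit elongation factors, were read for RPLP1 and RPLP2. RPLP1 stood at 12.14 and 12.07 at 0 h, 12.16 and 12.29 at 6 h, then 12.22 and 12.26 at 9 h, a change of 0.12 ± 0.19 and 0.14 ± 0.19. RPLP2 was read only by dim probe sets. The brighter of them gave 0.48 ± 0.72 at 6 h and 0.20 ± 0.72 at 9 h, with opposite directions in the experiments at 9 h. No probe set names RPLP0 alone.

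Of the proteins listed here as binding MDM2 (RPL5, RPL11, RPL23 and RPL26), only RPL11 had a probe set of its own. The list was not a full one of such proteins. RPL11 stood at 11.88 and 11.72 at 0 h, 11.44 and 11.99 at 6 h, then 11.69 and 12.09 at 9 h, and the experiments ran in opposite directions at both times. Among the genes linked to Diamond-Blackfan anaemia, an inherited failure of red cell production, RPS24 gave 0.10 ± 0.20 and 0.12 ± 0.20. The brightest probe set of RPS19 gave 0.02 ± 0.20 and -0.01 ± 0.20, its other one 0.39 ± 0.22 and 0.22 ± 0.22, and RPL35A -0.13 ± 0.22 and -0.00 ± 0.22. RPS26 and the ubiquitin fusion RPS27A had no probe set of their own.

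The paralogs, second gene copies of a ribosomal protein, included 5 tested genes, and none of these was higher in both experiments at either time. RPL36AL, the copy of RPL36A, stood at 9.63 and 9.37 at 0 h, 8.99 and 8.80 at 6 h, then 9.39 and 8.67 at 9 h, a change of -0.61 ± 0.30 at 6 h and -0.47 ± 0.30 at 9 h. RPS27L, a copy of RPS27 that p53 can induce, stood at 10.95 and 10.09 at 0 h, 10.47 and 9.74 at 6 h, then 10.56 and 9.69 at 9 h. Within each experiment the induced arrays were lower by similar amounts, -0.48 and -0.35 at 6 h and -0.40 and -0.39 at 9 h, but the experiments stood apart by more than that, and leaving out the 0 h array of experiment 1 gave 0.02 and 0.04. RPL10L, a copy of RPL10 used in the testis, gave -0.62 ± 0.50 at 6 h and 0.12 ± 0.50 at 9 h. RPL26L1 gave -0.15 ± 0.35 and -0.28 ± 0.35, and RPL39L 0.07 ± 0.41 and -0.03 ± 0.41. RPL3L, the muscle copy of RPL3, was at the floor in all 6 arrays, as were 1 probe set each of RPS14 and RPS6, and a probe set of RPS12 was above it in 1 array only.

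The largest positive values at 6 h and 9 h came from dim probe sets. RPL37A, a zinc-binding protein of the large subunit, stood at 6.46 and 7.28 at 0 h, 8.48 and 8.13 at 6 h, then 9.48 and 7.94 at 9 h in 214041_x_at. The change was 1.44 ± 0.54 at 6 h and 1.84 ± 0.54 at 9 h, and in experiment 1 at 9 h it was 3.02. All 4 induced arrays lay above both 0 h arrays, and over 15 settings, which include leaving out each array, the 9 h change stayed between 1.07 and 2.61. Its brightest probe set, 201429_s_at, stood at 13.19 and 13.07 at 0 h, 12.97 and 13.08 at 6 h, then 13.29 and 13.28 at 9 h, and its dimmest, 213459_at, gave -1.43 ± 0.53 at 6 h and -0.03 ± 0.53 at 9 h. The probe sets of this gene thus differed by 2.87 log2 units in their 6 h change, the widest range among the genes with at least 3 probe sets.

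RPL38 showed the same split. The dim 202028_s_at stood at 8.13 and 7.46 at 0 h, 8.36 and 8.29 at 6 h, then 9.69 and 7.92 at 9 h, a change of 0.53 ± 0.56 and 1.01 ± 0.56. The bright 202029_x_at stood at 12.02 and 11.93 at 0 h, 11.92 and 12.07 at 6 h, then 11.63 and 11.99 at 9 h, a change of 0.02 ± 0.21 and -0.17 ± 0.21. RPL27A was read by a dim probe set at 7.41 and 6.16 at 0 h, 7.28 and 6.62 at 6 h, then 8.80 and 7.14 at 9 h, a change of 1.19 ± 0.65 at 9 h. For all 3 genes the highest dim value was in the 9 h array of experiment 1. That array also had the highest ratio of 3′ to 5′ ACTB probe sets, 1.82 against 0.92 to 1.09 in the other 5, and the highest 28S rRNA signal over the array median, 10.1 against 0.263 to 3.23. The part of RNA quality in these values was not tested.

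At 9 h against 6 h the values were small among bright members: all 66 lay within 1.5-fold. Ranked by the brightest probe set of each gene, the largest ones of the same direction in both experiments were, on the higher side, RPL27A at 1.02 ± 0.65, RPL10L at 0.74 ± 0.50, RPL3 at 0.34 ± 0.25 and RPL35 at 0.29 ± 0.25. On the lower side they were RPL18 at -0.52 ± 0.30, RPS16 at -0.29 ± 0.21, RPS7 at -0.28 ± 0.19 and RPS29 at -0.28 ± 0.22. The direction of each of these was kept without any single array. Among all probe sets the largest value was that of the dim RPL37A probe set 213459_at, 1.40 ± 0.53, and the lowest of the same direction in both experiments that of the dim RPS28 probe set 208902_s_at, -0.67 ± 0.49.

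Genes with and without a tract at the annotated start were set side by side through the brightest probe set of each. The tract was called only from the exact annotated start base. Some of the 16 genes without it, among them RPL3, RPL36AL, RPL19 and RPS7, have a pyrimidine run that crosses this base. The split thus depends on the start annotation and is not a split into TOP and other mRNAs. The 33 tested genes with a tract had medians of -0.00 (6 h) and 0.03 (9 h) for the log2 change, with single values from -0.45 to 0.48 and from -0.49 to 1.19. The 16 without a tract had medians of -0.07 and -0.19, with single values from -0.73 to 0.11 and from -0.47 to 0.22. The ranges of the groups overlapped at both times.

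Other genes of the translation machinery gave no member past the threshold in either direction, in limma, whether or not experiment was in the fit. Mitochondrial ribosomal proteins, a separate set of 51 genes with 62 tested probe sets, had medians of -0.13 at 6 h and -0.15 at 9 h, with opposite signs in the experiments (0.05 and -0.23 at 6 h, 0.03 and -0.30 at 9 h). A list of 23 genes held translation factors and other proteins, among them NPM1, NAP1L1, TPT1, NACA and BTF3. These genes were not checked for the tract. Their median was 0.05 at 6 h, with 7 higher (30.4%) and 5 lower (21.7%) in both experiments. At 9 h it was 0.06, with 9 higher (39.1%) and 6 lower (26.1%). Over all tested probe sets the shares higher and lower were 25.3% and 25.8% at 6 h, and 26.9% and 28.9% at 9 h. The largest changes among these were EIF5A, the hypusine-bearing elongation factor, at -1.05 ± 0.34 at 9 h, EIF3B at -0.76 ± 0.29 and EIF3A at 0.63 ± 0.24, both subunits of initiation factor 3. Of 51 ribosome biogenesis genes the median was 0.03 at both times. In both experiments 12 were higher (23.5%) and 11 lower (21.6%) at 6 h, and 11 higher (21.6%) and 17 lower (33.3%) at 9 h. The upstream factor of ribosomal DNA transcription, UBTF, gave -1.20 ± 0.34 at 9 h, the helicase DDX10 gave 1.09 ± 0.48, and the ribosomal DNA cofactor TCOF1 gave -0.98 ± 0.40.

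Of 16 genes that regulate TOP mRNAs or growth, 6 were higher and 5 lower in both experiments at 6 h, and 7 higher and 4 lower at 9 h. DDIT4, an inhibitor of mTOR, gave 1.83 ± 0.64 at 9 h, but its 0 h arrays stood far apart, at 7.73 and 5.80. Also at 9 h, MYC, which drives ribosome production, gave 1.10 ± 0.44. TIAL1, an RNA binding protein that holds TOP mRNAs back under stress, gave 0.84 ± 0.31. LARP1 gave -0.81 ± 0.28 at 9 h, and EIF4EBP1, an mTOR target, gave -0.82 ± 0.33. FAU, which carries the ribosomal protein of the small subunit fused to a ubiquitin-like protein, stood at 11.05 and 11.30 at 0 h, 10.92 and 11.37 at 6 h, then 11.14 and 10.92 at 9 h.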

How the data were processed

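Per the files, the authors deposited 1 linear intensity per probe set and array for 6 arrays, without scaling between arrays; sources used here name no software. Because the 2% trimmed means differed 5.49-fold, intensities were quantile normalised, raised to a floor of 12.7 units (the 25th percentile) and put on a log2 scale. Of 22283 probe sets, 68 controls were left out and 18360 above the floor in at least 2 arrays were tested with limma 3.58.1 in R 4.3.3 (lmFit, eBayes with trend, 3 residual degrees of freedom), adjusted by Benjamini-Hochberg over all of them; p-values are two-sided. Genes come from the platform table, 19071 probe sets with 1 symbol, 19059 of them read through Entrez numbers. Per the labels each experiment is 1 batch of RNA, so its number pairs the arrays: deviations from group means correlated at 0.247, 0.336 and 0.391. The 6 h array of experiment 2 carries the lot line of experiment 1; its title was followed. Tested on 5 simulated data sets of 18360 probe sets for 9 h against 0 h, 200 of them changed by 2 log2 units, the fit recovered 163 to 173 with the experiment as a term (10 to 20 false calls) and 0 to 8 without it (0 false calls). These data were drawn with an experiment effect, which favours the first. The simulated size is beyond that of every member at 9 h (-1.12 to 1.84), and the recovery of smaller changes was not measured. Alternatives were other scalings, floors, filters, blocks and each array left out. The members, lists and rules for naming (largest changes of the same direction in both experiments, fixed roles, genes with at least 3 probe sets that differ most, probe sets at the floor) were chosen with earlier results of these data known; RPL29, RPS9, RPL24, RPL41, LARP1 and EIF4EBP1 among others were described after their values were seen. The 1 Y-linked member is counted and not given by value. With 2 arrays per group, their number limits the precision.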

Additional observations from a re-analysis of the deposited data

Results flagged for a closer look

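RPL35 and RPL9, both large-subunit proteins, ran in opposite directions at 6 h and at 9 h in both experiments, which is why they are given here. RPL35 had a log2 change of -0.1426 at 6 h (-0.22 and -0.07 in experiments 1 and 2) and 0.1442 at 9 h (0.24 and 0.05). The difference between 9 h and 6 h was tested with limma and had an adjusted p of 0.932. RPL9 had -0.0541 at 6 h (-0.10 and -0.01) and 0.0456 at 9 h (0.02 and 0.07), with an adjusted p of 0.964.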

How the results depend on the processing

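The 6 h median of the ribosomal protein probe sets, -0.05, was 0.0481 unscaled, less the median change of all tested probe sets. It was 0.0246 with median scaling, 0.2235 with a trimmed mean, -0.1674 without probe sets ending in _x_at or _s_at and -0.0328 at a level of at least 10 (chosen after seeing the data). Leaving out single arrays gave -0.0618 to 0.0014, passing through -0.0020. At 9 h the same gave -0.1044 (9 h array of experiment 1 left out) to 0.0070. The 9 h against 6 h median was -0.1363 with a trimmed mean and 0.1738 without _x_at and _s_at probe sets. The median of both induced times was 0.0298, 0.0100 and 0.0839 under the 3 scalings, -0.0564 (9 h array of experiment 1 left out) to -0.0090 with single arrays left out, -0.1830 without _x_at and _s_at probe sets and -0.0079 at a level of at least 10. With the experiment as a replicate block, 1 member passed for both induced times and 0 otherwise, and the log2 change of RPL22 was -1.0403 with or without it; the block changed no other call, and with the lot line as the block 0 members passed. Counts of members whose groups do not overlap moved with scaling, chosen after seeing the data. The shares of all tested probe sets under these scalings alone were not taken. At 6 h there were 5 higher with median scaling, 31 higher and 7 lower with a trimmed mean and 27 higher relative to the family median. At 9 h there were 3 and 10 lower under median and trimmed mean scaling. For both induced times there were 2 higher and 1 lower with median scaling and 18 and 2 with a trimmed mean. Relative to the family median, 20 were higher for both induced times. Of 520 values of 65 single changes under 8 settings, 514 kept their direction; the 6 that turned were RPS10 211542_x_at at 6 h (0.0184 unscaled, 0.0221 median scaling, 0.2210 trimmed mean) and, with the lot line as block, RPLP2 at -0.1678 and RPL38 at -0.0804 and -0.1159. Of 390 values without 1 array, 7 turned: RPS21 214097_at, which spanned -3.666 to 0.6091 at 6 h and -1.2151 to 0.3036 at 9 h, RPS27L, -0.8469 to 0.0184 at 6 h and -0.8261 to 0.0392 (0.0374 with another array) at 9 h, and at 9 h RPL24 214143_x_at, -1.0068 to 0.0494, and RPL38 221943_x_at, -0.0662 to 1.7419. The cause was not tested.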
